A study of Mus musculus with 6 samples.

Results

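The dystrophin glycoprotein complex was followed in satellite cells (SCs) through 8 genes, chosen by name: *Dmd*, *Utrn*, *Dag1*, *Sgca*, *Sgcb*, *Sgcd*, *Sgce* and *Dtna*. Each name matched 1 row of the deposited expression table, so the 8 members stood for 8 of its 55416 genes. SCs are the resident stem cells of skeletal muscle. Here they came from hind leg muscle of WT mice and of mice with a systemic *Ltf* knockout (*Ltf*-KO), made with CRISPR-Cas9 in C57/BL6N zygotes by deleting exons of the lactoferrin gene, and the mice were in general 8 to 10 weeks old. The cells had been sorted by flow cytometry and grown for 4 days on Matrigel in medium with serum and basic fibroblast growth factor, with no further treatment, which gave 3 WT and 3 *Ltf*-KO libraries. As the knockout was systemic, the cells had developed in *Ltf*-KO animals, and how many animals went into a library is not given in the sources used here. The labels do not say that replicates came from separate animals, so p-values measure only the spread between these libraries.

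Dystrophin is a long cytoplasmic protein that ties the actin cytoskeleton of the muscle fiber to a group of membrane proteins, and through them to the laminin of the basement membrane. Dystroglycan is the laminin receptor of this group, the sarcoglycans form a subcomplex beside it, and dystrobrevin and the syntrophins bind dystrophin from the cytoplasm. Utrophin is a close relative of dystrophin that is made in many tissues and in developing muscle, and loss of dystrophin or of a sarcoglycan causes muscular dystrophy. In activated SCs dystrophin is also known for its part in cell polarity and asymmetric division.

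The libraries held transcripts of both SC and early differentiation markers. *Pax7*, the transcription factor that marks SCs, was at 36.6 to 43.3 TPM over the 6 libraries. *Myod1*, a myogenic transcription factor, was at 747.6 to 815.7 TPM, while *Myog*, which drives differentiation, ranged from 266.2 to 507.8 TPM. Of 12 SC and myoblast markers 2 were under 1 TPM in every library, *Calcr* (0 to 0.07 TPM) and *Chrdl2* (0.04 to 0.24 TPM). *Msc*, of the same list, was at 0.85 to 1.68 TPM. TPM, the authors' unit, is corrected for gene length and scaled to one total per library, so levels of different genes can be set side by side, but the read depth is unknown. The targeted gene *Ltf* was at 0 to 0.12 TPM in every library and could not check the genotypes. Of 10 leukocyte markers 7 were under 1 TPM in every library, among them *Ptprc* (0 to 0.16 TPM) and *Adgre1* (0 to 0.08 TPM), while *Cd68* was at 3.12 to 3.98 TPM, *Lyz2* at 0.38 to 7.22 TPM and *Tyrobp* at 0 to 1.03 TPM, the last 2 highest in WT replicate 1. Of Schwann cell and endothelial markers, *Sox10* was at 2.99 to 6.62 TPM and *Cdh5* at 1.79 to 4.97 TPM. *Xist* was at 163 to 185.3 TPM and the Y-linked genes *Ddx3y*, *Eif2s3y*, *Kdm5d* and *Uty* at most at 0.2 TPM in all 6 libraries. Both genotypes thus showed the pattern of female cells, and *Dmd* is an X-linked gene.

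The 8 members covered a wide range of levels, and their order was the same in 6 of 6 libraries. *Sgca*, which encodes α-sarcoglycan, was the highest, with a mean of 105.5 TPM over the 6 libraries. *Dag1* (dystroglycan) followed at 64.8, *Sgcb* (β-sarcoglycan) at 45.4, *Utrn* (utrophin) at 32.6, *Sgce* (ε-sarcoglycan) at 19.7, *Dtna* (α-dystrobrevin) at 10.5, *Dmd* (dystrophin) at 4.31 and *Sgcd* (δ-sarcoglycan) at 1.78 TPM. The ranges of neighbours in this order did not overlap in any of the 7 steps, so each step was larger than the spread between libraries. Among the 12956 genes averaging 1 TPM or more, *Sgca* ranked 1310th and *Dmd* 10178th. Of the summed TPM of the 8 members, *Sgca* made up 33.8% to 42.2% and *Dmd* 1.13% to 1.87% in a library. In bulk RNA, fewer cells that express a gene and less of its RNA per cell cannot be told apart.

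**Figure D1:**
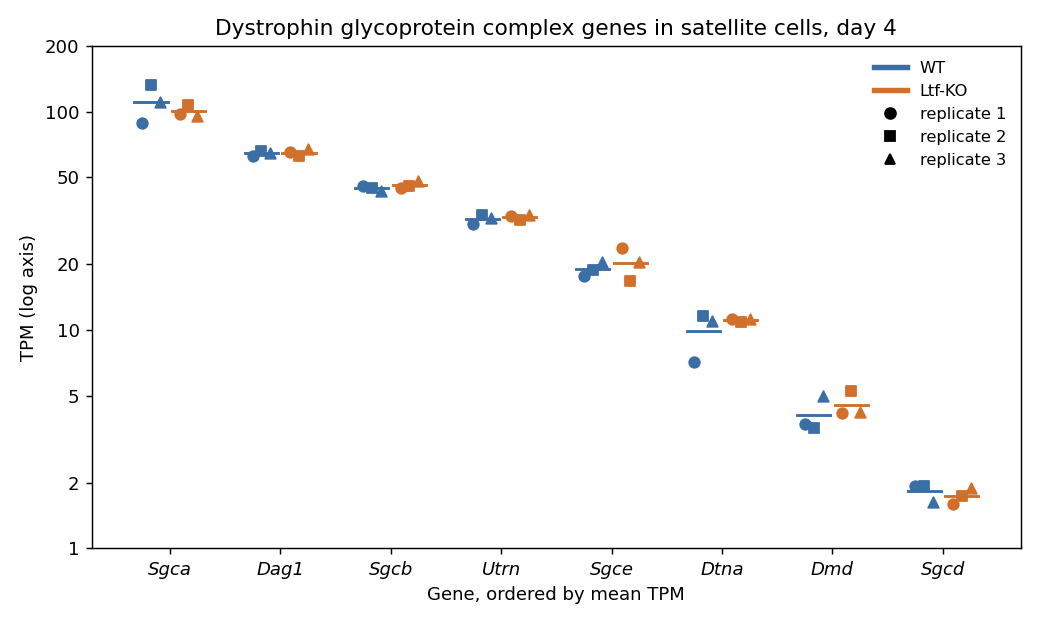
TPM (log axis) of the 8 genes of the dystrophin glycoprotein complex, ordered by mean level, in WT (blue) and *Ltf*-KO (orange) SCs. Each point is 1 library, its shape gives the replicate number and bars are means of 3 libraries. The genes step down from *Sgca* to *Sgcd* without overlap between neighbours, while the genotypes overlap for all 8 genes.

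*Dmd*, on the X chromosome, encodes dystrophin. It measured 3.69, 3.54 and 4.99 TPM in WT SCs, against 4.18, 5.27 and 4.21 TPM in *Ltf*-KO SCs. WT replicate 3 and *Ltf*-KO replicate 2 were the highest of their genotypes, and the genotypes overlapped. The gene holds starts for full-length dystrophin and, near its 3′ end, for short products, and in GENCODE M21 its coding transcripts run from 1858 to 14910 bases. The deposited value is 1 number for the gene, so the part of each product in it is unknown, and the length by which reads were divided is not given in the sources used here.

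Promoter windows were found for 6 of the 8 members (8 windows) in RefSeq on GRCm38.p6. The 250 bases before the start are shown for *Sgca*, the highest member, and for 2 starts of *Dmd*. These 2 starts had a window and need not be all starts of the gene, between which the gene-level value cannot choose. The first *Dmd* window is chrX:82948620-82948869 on the plus strand, the internal one is chrX:85048045-85048294 on the plus strand, and that of *Sgca* is chr11:94976328-94976577 on the minus strand. All are written 5′ to 3′, and capitals mark E-boxes (CANNTG, the same on both strands), the motif that myogenic factors such as MyoD bind.
Dmd, first start: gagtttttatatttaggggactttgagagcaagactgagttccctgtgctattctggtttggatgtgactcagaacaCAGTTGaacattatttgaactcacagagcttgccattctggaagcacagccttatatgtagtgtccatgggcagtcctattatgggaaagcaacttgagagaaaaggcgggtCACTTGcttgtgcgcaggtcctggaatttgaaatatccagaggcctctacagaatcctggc
Dmd, internal start: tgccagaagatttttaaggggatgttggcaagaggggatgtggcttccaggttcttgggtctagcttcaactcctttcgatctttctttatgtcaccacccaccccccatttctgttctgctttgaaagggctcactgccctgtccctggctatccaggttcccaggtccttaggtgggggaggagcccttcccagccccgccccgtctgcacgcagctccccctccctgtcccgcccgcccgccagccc
Sgca: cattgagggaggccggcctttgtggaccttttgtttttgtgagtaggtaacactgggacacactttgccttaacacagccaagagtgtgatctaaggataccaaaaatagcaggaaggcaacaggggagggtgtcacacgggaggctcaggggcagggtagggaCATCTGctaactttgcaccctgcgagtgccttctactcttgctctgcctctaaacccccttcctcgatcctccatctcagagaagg
The first *Dmd* window held 2 E-boxes, the internal one 0 and the *Sgca* window 1. Of all 32851 windows of this length, 66.2% held at least 1 E-box. The internal *Dmd* window held 3 GC boxes (GGGCGG on either strand), a motif found in 32.7% of all windows, against 0 in the first *Dmd* window and 0 in that of *Sgca*. Its GC content was 60% against 45.2% in the first *Dmd* window and a median of 52.4% over all windows. These matches describe the letters of the windows and not binding.

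*Utrn*, on chromosome 10, encodes utrophin and was steadier than *Dmd*. It measured 30.66, 33.7 and 32.69 TPM in WT SCs, against 33.12, 32 and 33.61 TPM in *Ltf*-KO SCs. The lowest library was WT replicate 1 and the whole range spanned 1.1-fold. The TPM of *Utrn* was 6.07 to 9.52 times that of *Dmd* in each library. This ratio depends on the lengths by which the reads were divided, which are not given in the sources used here. Coding transcripts of *Dmd* run from 1858 to 14910 bases. The log2 ratio of *Utrn* to *Dmd* was 3.01 ± 0.273 (SD, n = 3) in WT and 2.86 ± 0.225 (SD, n = 3) in *Ltf*-KO SCs. The difference of -0.14 was smaller than the spread between libraries (two-sided exact permutation p = 0.5, adjusted p = 0.5 over 2 ratios), where 0.1 is the smallest p that 3 libraries against 3 allow.

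*Dag1*, on chromosome 9, encodes the precursor of α- and β-dystroglycan. It measured 62.71, 66.31 and 64.92 TPM in WT SCs, against 65.1, 62.42 and 67.33 TPM in *Ltf*-KO SCs. These 6 values lay within 1.08-fold of each other, the narrowest range of the 8 members. *Dtna*, on chromosome 18, encodes the cytoplasmic partner α-dystrobrevin. It measured 7.1, 11.6 and 11.01 TPM in WT SCs, against 11.17, 10.87 and 11.21 TPM in *Ltf*-KO SCs. WT replicate 1 alone was low, and the other 5 libraries lay between 10.87 and 11.6 TPM. The same library had the lowest *Utrn* and *Sgca* values and the highest sum of the 10 leukocyte markers (13.4 TPM against 3.8 to 7 TPM in the other 5), whose part in the *Dtna* value was not tested.

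Among the sarcoglycans, *Sgca* (chromosome 11) showed the widest absolute spread. It measured 88.99, 132.05 and 111.16 TPM in WT SCs, against 97.99, 107.8 and 95.26 TPM in *Ltf*-KO SCs. All 3 *Ltf*-KO values lay between the lowest and the highest WT value. Within genotypes its standard deviation was 0.21 on the log2(TPM + 1) scale, against a median of 0.055 over the 1391 genes with a mean of 100 TPM or more. *Sgcb* (chromosome 5) measured 45.55, 44.87 and 43.52 TPM in WT SCs, against 44.76, 45.65 and 47.87 TPM in *Ltf*-KO SCs. Its within-genotype standard deviation of 0.042 was under the median of 0.087 for genes from 10 to 100 TPM. *Sgcd*, the other sarcoglycan on chromosome 11 among the members, measured 1.92, 1.93 and 1.63 TPM in WT SCs, against 1.6, 1.73 and 1.89 TPM in *Ltf*-KO SCs. These values were close to the minimum of 1 TPM used for testing.

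*Sgce* (chromosome 6) encodes ε-sarcoglycan, which is related to α-sarcoglycan and made in more tissues. In the deposited annotation *Sgca* and *Sgce* share 1 protein family (Sarcoglycan_2) and *Sgcb* and *Sgcd* another (Sarcoglycan_1). *Sgce* measured 17.73, 18.84 and 20.4 TPM in WT SCs, against 23.76, 16.76 and 20.51 TPM in *Ltf*-KO SCs. The *Ltf*-KO libraries held both the highest and the lowest value. The α form was the more abundant in every library, with *Sgce* at 0.143 to 0.242 of the *Sgca* level. The log2 ratio of *Sgce* to *Sgca* was -2.53 ± 0.251 (SD, n = 3) in WT and -2.31 ± 0.332 (SD, n = 3) in *Ltf*-KO SCs, a difference of 0.21 (two-sided exact permutation p = 0.4, adjusted p = 0.5 over 2 ratios).

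**Figure D2:**
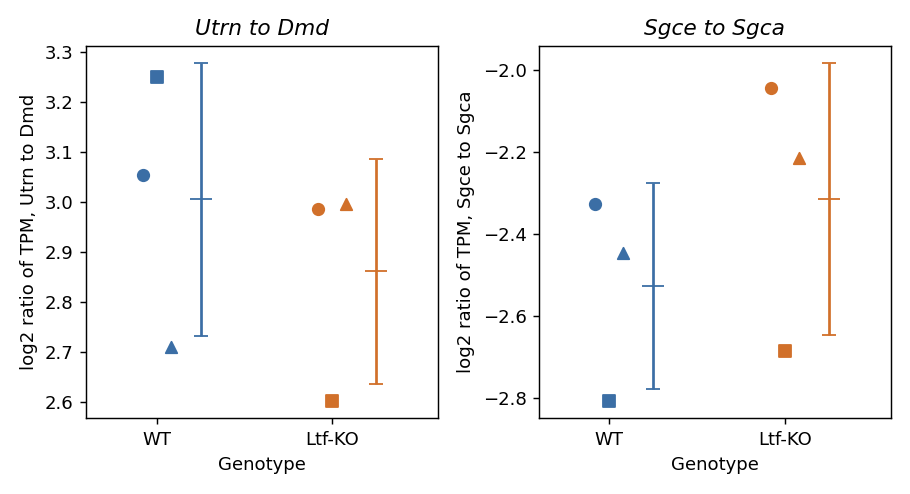
Log2 ratio of TPM within each library for *Utrn* to *Dmd* (left) and *Sgce* to *Sgca* (right), by genotype. Points are libraries, with shapes for replicates 1 (circle), 2 (square) and 3 (triangle), and bars are the mean and SD of 3 libraries. The genotypes overlap in both panels, with ratios of 6.07 to 9.52 on the left and 0.143 to 0.242 on the right before taking logs.

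To ask whether *Ltf* deletion changed these genes, limma was fitted to log2(TPM + 1) values of all 12956 genes that averaged 1 TPM or more, with fold changes as *Ltf*-KO over WT. None of the 8 members, all of which passed this filter, had an unadjusted p under 0.05 in this fit, against 3.78% of all genes tested. The adjusted p was 0.999 for each of them by limma, and 0 genes of the whole table (0%) had an adjusted p under 0.05, against 490 (2.01% higher and 1.78% lower in *Ltf*-KO) at an unadjusted p under 0.05. That balance depended on the scaling, as 230 of the 490 genes were lower here, 305 of 508 after quantile normalization and 280 of 502 after median-of-ratios scaling. The WT and *Ltf*-KO libraries overlapped for all 8 members, while they did not for 8.46% of all genes. The median log2 fold change of the members was 0.035, with 6 of 8 above 0 (*Dag1* turned to -0.0039 after median-of-ratios scaling), beside a median of 0.011 and 55.7% above 0 over all genes.

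The intervals say how large a change these libraries leave possible. They were narrow for *Dag1*, with a log2 fold change of 0.01 (standard error 0.045, 95% interval -0.10 to 0.11), for *Sgcb* with 0.04 (standard error 0.045, -0.06 to 0.15) and for *Utrn* with 0.02 (standard error 0.052, -0.10 to 0.15). They were wider for *Dmd*, with a log2 fold change of 0.14 (standard error 0.144, -0.21 to 0.48), *Sgca* with -0.12 (standard error 0.138, -0.46 to 0.21) and *Sgce* with 0.08 (standard error 0.125, -0.22 to 0.38). *Dtna* had the widest interval, from -0.23 to 0.58 around 0.18 (standard error 0.167), and *Sgcd* was at -0.04 (standard error 0.127, -0.35 to 0.26). With 1 library left out *Dmd* ranged from 0.046 (without *Ltf*-KO replicate 2) to 0.26 (without WT replicate 3). A change of 1 or -1 on this scale lay outside all 8 intervals. As 1 was added to TPM, a doubling or halving of TPM is a smaller step than this for genes as low as *Dmd* and *Sgcd*. A fold change on this scale is understated for a gene as low as *Sgcd*. *Sgca* had the one unadjusted p under 0.05 of any member in the fits that each left out 1 library, at -0.27 (limma unadjusted p = 0.0321, adjusted p at least 0.946 for every member tested under the 13 alternatives) without WT replicate 1, and it was at 0.01 without WT replicate 2.

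**Figure D3:**
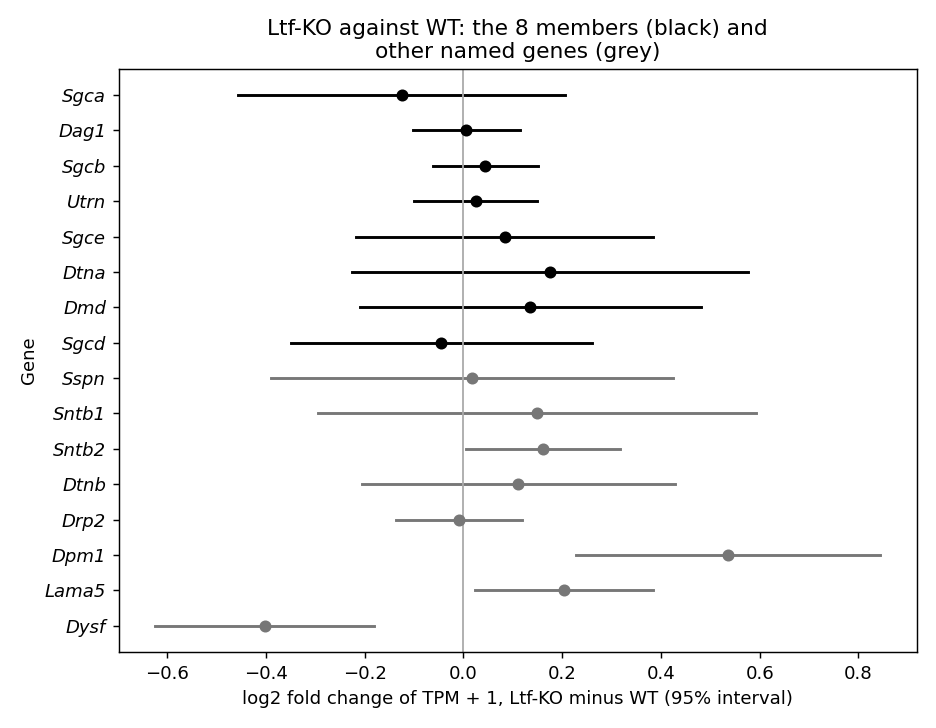
Log2 fold change of TPM + 1, *Ltf*-KO minus WT, with the 95% interval from limma, for the 8 members (black) and 8 other genes named in the text (grey). All 8 member intervals cover 0. Those of *Sntb2*, *Dpm1*, *Lama5* and *Dysf* do not, and none of these has an adjusted p under 0.05.

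The complex has further subunits and partners, of which a list of 16 was examined and 11 were at a mean of 1 TPM or more. *Sspn* (sarcospan, a small membrane protein of the sarcoglycan group) averaged 17.6 TPM over the 6 libraries, *Sntb1* (β1-syntrophin) 12.1, *Sntb2* (β2-syntrophin) 6.57 and *Dtnb* (β-dystrobrevin) 9.88 TPM. *Drp2*, a shorter relative of dystrophin, was at 31.2 TPM, and its range of 29.97 to 32.66 TPM overlapped that of *Utrn*. The ζ-sarcoglycan gene *Sgcz* was at 0 TPM in 5 libraries and at 0.03 TPM in *Ltf*-KO replicate 2. *Nos1*, which encodes the nitric oxide synthase that binds the complex in mature fibers, was at 0.09 to 0.13 TPM. Of the 11 genes 1 had an unadjusted p under 0.05, *Sntb2*, against 3.78% of all genes tested. It measured 6.27, 6 and 6.18 TPM in WT SCs, against 6.96, 6.93 and 7.1 TPM in *Ltf*-KO SCs. The genotypes did not overlap, as for 8.46% of all genes tested. Its log2 fold change was 0.16 (standard error 0.065, limma unadjusted p = 0.0445, adjusted p = 0.999). This p rose above 0.05 with no filter on low values, after quantile normalization or median-of-ratios scaling, and with any 1 library left out.

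Dystroglycan binds laminin only after a sugar chain is built on it, and 19 of 20 listed glycosylation genes were tested. Of these 19 genes 1 had an unadjusted p under 0.05, against 3.78% of all genes tested. This was *Dpm1*, the catalytic subunit of dolichol phosphate mannose synthase. It measured 29.29, 27.29 and 25.79 TPM in WT SCs, against 41.63, 47.27 and 33.04 TPM in *Ltf*-KO SCs. All 3 *Ltf*-KO libraries were above all 3 WT libraries, while the genotypes did not overlap for 8.46% of all genes tested. The log2 fold change of *Dpm1* was 0.54 (standard error 0.128, limma unadjusted p = 0.00482, adjusted p = 0.999). In GENCODE M21 its exons overlap those of Gm20716 on the same strand, listed here at 27.39 to 30.8 TPM, so the split of reads between them is uncertain. The median log2 fold change of the 19 genes was 0.031.

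Of 13 listed matrix ligands of dystroglycan, 10 were tested. *Lama2*, the laminin chain of the muscle basement membrane, averaged 25.1 ± 2.32 TPM in WT against 26.3 ± 1.58 TPM in *Ltf*-KO SCs (SD, n = 3 each), and *Agrn* (agrin) was at 21.9 ± 2.38 and 22.02 ± 2.93 TPM (SD, n = 3 each). *Lama5*, another laminin α chain, measured 19.46, 16.91 and 19.72 TPM in WT SCs, against 21.87, 22.6 and 20.5 TPM in *Ltf*-KO SCs. It was the 1 gene of these 10 with an unadjusted p under 0.05, against 3.78% of all genes tested. The genotypes did not overlap, as for 8.46% of all genes tested. The log2 fold change was 0.2 (standard error 0.075, limma unadjusted p = 0.0318, adjusted p = 0.999). The limma unadjusted p was 0.0836 without WT replicate 2 (log2 fold change 0.14), 0.0849 without *Ltf*-KO replicate 1, 0.0975 without *Ltf*-KO replicate 2 and 0.0734 with the replicate block. Among 16 genes of parallel adhesion and membrane repair, *Itga7*, the laminin-binding integrin chain on which the cells were sorted, averaged 380.3 ± 13.2 TPM in WT against 387.9 ± 24.2 TPM in *Ltf*-KO SCs (SD, n = 3 each). *Dysf*, which encodes the membrane repair protein dysferlin, measured 9.66, 9.49 and 7.81 TPM in WT SCs, against 6.65, 6.62 and 6.32 TPM in *Ltf*-KO SCs. It was the 1 gene of these 16 with an unadjusted p under 0.05, against 3.78% of all genes tested. Its log2 fold change was -0.40 (standard error 0.092, limma unadjusted p = 0.00396, adjusted p = 0.999), and it ranged from -0.49 to -0.35 with any 1 library left out. The last 2 lists had median log2 fold changes of 0.072 and 0.022.

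The libraries differed in the level of differentiation markers, to which the members were related in turn. The mean log2(TPM + 1) of 16 muscle differentiation markers, such as *Myog*, *Myh3* and *Acta1*, came to 6.34, 6.70 and 6.18 for WT, against 6.49, 6.24 and 6.96 for *Ltf*-KO SCs. *Ltf*-KO replicate 3 was the highest, followed by WT replicate 2, and the genotypes overlapped (two-sided exact permutation p = 0.6). Levels within the list differed widely. *Ckm*, a late marker, was at 3.85 to 6.28 TPM and *Myh8* at 3.12 to 8.36 TPM. *Myh3* was at 88.85 to 159.04, *Acta1* at 843.7 to 1243.4 and *Mylpf* at 822.35 to 1396.4 TPM. Over the 6 libraries *Dag1* had the strongest relation of the 8 members with this mean, with Pearson's r = 0.82 (exact permutation p = 0.0583) and Spearman's rho = 0.83 (exact permutation p = 0.0583), and adjusted p = 0.422 for r and 0.363 for rho over 8 relations. Without the 2 libraries farthest from the median of the marker mean, r for *Dag1* was 0.26, so the relation rested on *Ltf*-KO replicate 3 and WT replicate 2. For *Sgcb*, *Utrn*, *Sgcd*, *Dtna* and *Sgce* r was 0.71, 0.64, 0.55, 0.31 and 0.29, for *Sgca* it was 0.02 and for *Dmd* it was -0.54, with the smallest adjusted p at 0.422 (exact permutation). For *Sgcb* r was 0.17 without *Ltf*-KO replicate 3.

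Among the 10 tested other subunits outside the marker list, related to the same mean after their values were seen, *Sntb1* followed it in every step. *Sntb1* measured 11.87, 13.28 and 9.04 TPM in WT SCs, against 12.74, 10.04 and 15.58 TPM in *Ltf*-KO SCs, with r = 0.95 (exact permutation p = 0.00417, adjusted p = 0.0208), rho = 1 (exact permutation p = 0.00278, adjusted p = 0.0139) and r = 0.96 without the 2 farthest libraries. *Sspn* measured 17.64, 19.44 and 15.13 TPM in WT SCs, against 15.82, 14.89 and 22.84 TPM in *Ltf*-KO SCs. Its r was 0.93 (exact permutation p = 0.0111, adjusted p = 0.037) and its rho 0.89 (exact permutation p = 0.0333, adjusted p = 0.0833), but r fell to 0.44 without *Ltf*-KO replicate 3 and WT replicate 2. For *Drp2* r was 0.85 and rho 0.94 (exact permutation p = 0.0375 and 0.0167, adjusted p = 0.0938 and 0.0556), with r = 0.41 without those 2 libraries.

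**Figure D4:**
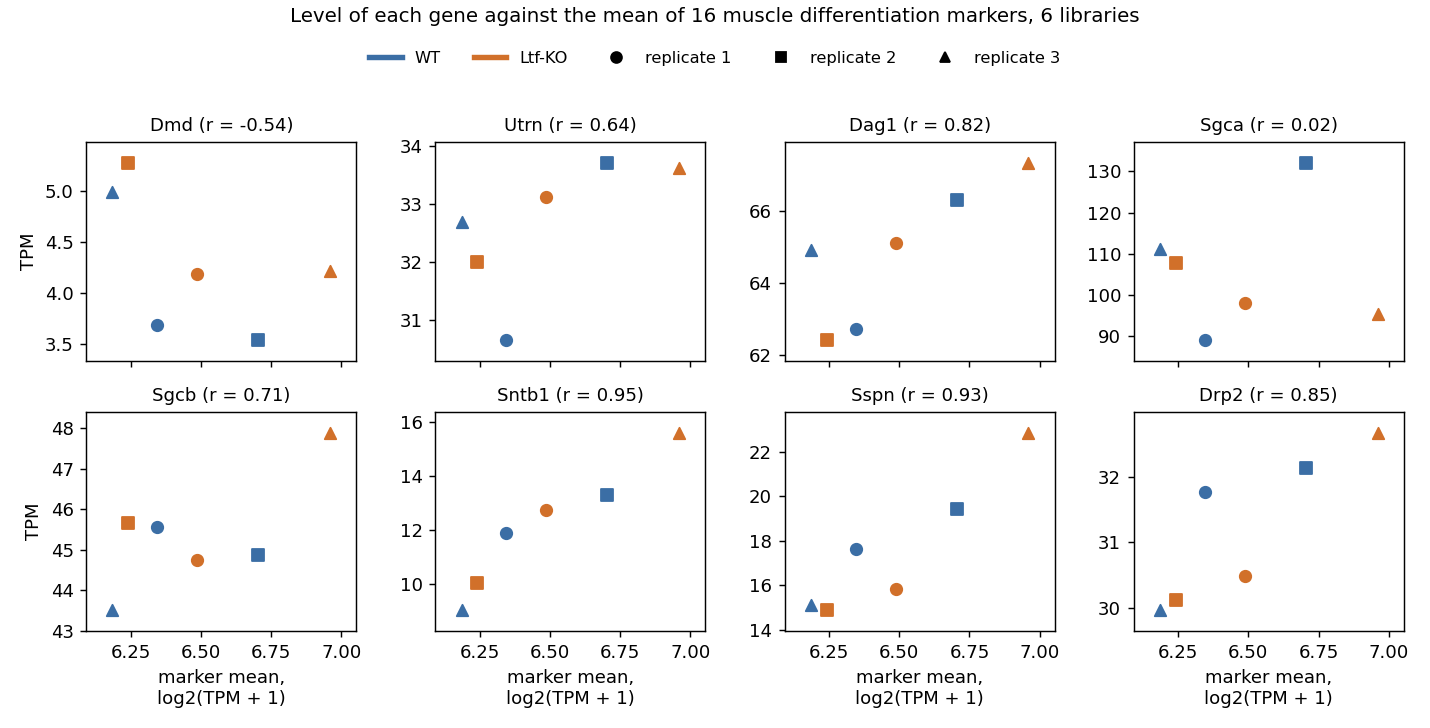
TPM of 5 members (*Dmd*, *Utrn*, *Dag1*, *Sgca*, *Sgcb*) and of *Sntb1*, *Sspn* and *Drp2* against the mean log2(TPM + 1) of 16 muscle differentiation markers, with Pearson's r on the log2(TPM + 1) scale in each title. Each point is 1 library (blue WT, orange *Ltf*-KO, circle, square and triangle for replicates 1, 2 and 3) and each panel has its own TPM axis. *Sntb1* climbs in step with the markers and *Sgca* shows no such order (r = 0.02). For *Dmd* r is negative (-0.54), with exact permutation p = 0.265 and adjusted p = 0.424 over 8 relations.

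Markers of other cell types were set beside the 8 members in the same way, as 32 relations chosen after the values were seen. The 10 endothelial markers, of which 4 were under 1 TPM in every library, summed to 8.37 to 20.6 TPM in the WT libraries and 9.93 to 20.4 TPM in the *Ltf*-KO libraries. The 10 Schwann cell markers summed to 48.8 to 71.5 TPM in WT and 53.6 to 70.6 TPM in *Ltf*-KO SCs, and none of them was under 1 TPM in all libraries. The libraries with the most *Dmd*, WT replicate 3 and *Ltf*-KO replicate 2, also had the highest sums of both lists. For *Dmd* and the mean of the 5 endothelial markers tested r was 0.84 (exact permutation p = 0.0472) and rho 0.77 (exact permutation p = 0.103), and r was 0.87 without the 2 farthest libraries. For the Schwann cell markers r was 0.81 (exact permutation p = 0.0556) and rho 0.66 (exact permutation p = 0.175), and r was 0.71 without the 2 farthest libraries. *Sgcd* went the other way, with r = -0.92 (exact permutation p = 0.0639) and rho = -0.77 (exact permutation p = 0.103) for the endothelial and r = -0.83 (exact permutation p = 0.0681) and rho = -0.66 (exact permutation p = 0.175) for the Schwann list. However, *Sgcd* only ranged from 1.6 to 1.93 TPM, close to the minimum of 1 TPM used for testing. The fibroblast list gave r = -0.82 for *Sgcd* (exact permutation p = 0.0694) and 0.67 for *Dmd* (exact permutation p = 0.169, adjusted p = 0.678). The smooth muscle and pericyte list gave r = 0.26 for *Sgcd* (exact permutation p = 0.632, adjusted p = 0.912) and -0.04 for *Dmd* (exact permutation p = 0.956, adjusted p = 0.986). After adjustment over the 32 relations the exact permutation p-values of the endothelial and Schwann lists, and of *Sgcd* with the fibroblast list, were 0.444 for each r and 0.7 for each rho, and the part of such cells in the *Dmd* level was not tested.

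In the annotation deposited with the values, the term dystrophin-associated glycoprotein complex covered 15 named genes, of which 5 were members (*Dag1*, *Sgcb*, *Sgcd*, *Sgce* and *Utrn*). *Dmd*, *Sgca* and *Dtna* did not carry it, although *Sgca* carried the terms for the sarcoglycan and the dystroglycan complex. Of the 12 genes of the first term that were tested, *Sntb2* was the 1 with an unadjusted p under 0.05 by limma, against 3.78% of all genes. The pathway entry for hypertrophic cardiomyopathy held 5 members (*Dag1*, *Dmd*, *Sgca*, *Sgcb* and *Sgcd*), among 91 named genes. *Dmd* and *Utrn* shared the calponin homology, spectrin, WW, EF-hand and ZZ families in this table, and *Dtna* shared the EF-hand and ZZ families with both.

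For each member the tested gene with the closest profile over the 6 libraries was found by the distance between z-scored log2(TPM + 1) values. These were *Rasgrp3* for *Dmd* (distance 0.274), *Foxn2* for *Utrn* (0.236), *Mob4* for *Dag1* (0.278), D130017N08Rik for *Sgca* (0.235), Gm48443 for *Sgcb* (0.311), *G3bp1* for *Sgcd* (0.344), *Amd1* for *Sgce* (0.213) and *Hagh* for *Dtna* (0.259). With 6 libraries and 12956 genes such neighbours are found for any profile, and they are given as a description.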

How the data were processed

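RNA was sequenced from 3 WT and 3 *Ltf*-KO libraries of SCs grown for 4 days. The authors deposited TPM values with 2 decimals, extracted and normalized by the sequencing company's protocol. The submitters' processing notes name the genome build GRCm39, while aligner, counting tool and annotation release are not given in the sources used here. Libraries were assigned to genotypes from the sample labels. TPM keeps no depth, so only the replicates show how precise a value is.

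The table was fitted whole with limma 3.58.1 in R 4.3.3 (lmFit and eBayes with trend = TRUE) to log2(TPM + 1) of genes averaging 1 TPM or more, with two-sided tests, Benjamini-Hochberg adjustment and a p threshold of 0.05. The fit was also run on simulated data drawn independently for each gene. Those data held no deviation shared by the genes of a library, so the run does not cover such deviations. Ratios were compared by exact permutation of the genotype labels, and relations with marker means over all 720 pairings (Python 3.11.15). GENCODE M21 (GRCm38) gave chromosomes, transcripts and exon overlaps by gene identifier, with no other coordinates used. Promoter letters came from RefSeq on GRCm38.p6.

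The members and lists were chosen with earlier results of these data known. Named were all 8 members, set genes of each list and list genes at an unadjusted p under 0.05. Some set genes are not reported here. *Gm20716* was named as an overlapping gene, and *Drp2*, *Nos1*, the sex genes and single cell type markers after their values were seen. Alternatives were a pseudocount of 0.1, no filter, a minimum mean of 10 TPM, no trend, quantile normalization, median-of-ratios scaling, the replicate number as a block, and each library left out.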

Additional observations from a re-analysis of the deposited data

How the results depend on the processing

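The count of 0 members at an unadjusted p under 0.05 (limma) held under the 7 alternatives with all libraries and ranged from 0 to 1 with any 1 library left out. Over all genes, 890 had an unadjusted p under 0.05 with no filter and 281 with a minimum mean of 10 TPM (each with its own number of genes tested), and 456 to 611 with 1 library left out. Genes at an adjusted p under 0.05 numbered 0, and 0 to 6 with 1 library left out. At that minimum, *Dmd* and *Sgcd* were not tested.

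With 1 library left out, log2 fold changes ranged from 0.046 to 0.26 for *Dmd*, -0.012 to 0.054 for *Utrn* (lower without WT replicate 1), -0.0196 to 0.034 for *Dag1* (below 0 without WT replicate 1 or *Ltf*-KO replicate 3), -0.27 to 0.011 for *Sgca*, -0.0303 to 0.21 for *Sgce* (without *Ltf*-KO replicate 1 at the low end) and -0.026 to 0.29 for *Dtna* (without WT replicate 1 at the low end). *Dag1* was -0.0039 with median-of-ratios scaling. Of the other genes, the ranges crossed 0 for *Sspn* (-0.16 to 0.13), *Itga7* (-0.023 to 0.059), *Lama2* (-0.0064 to 0.12), *Agrn* (-0.095 to 0.086), *Pax7* (-0.11 to 0.0038), *Myod1* (-0.026 to 0.038), *Myog* (-0.12 to 0.34) and *Ckm* (-0.071 to 0.22). With quantile normalization *Sspn* was -0.0078, *Agrn* -0.015 and *Myod1* -0.0029, and with median-of-ratios scaling *Agrn* was -0.0081 and *Myod1* -0.0067. The cause was not tested.

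Both genotypes carry replicate numbers 1 to 3, and libraries with the same number, each centred on its genotype, correlated at -0.041, -0.058 and -0.088. No shared deviation was thus seen, and the labels do not say what the number stands for. With this replicate block 380 genes had an unadjusted p under 0.05 and *Sntb2* (limma unadjusted p = 0.116) and *Lama5* (0.0734) were no longer under it, while no member was. The differences of the log2 ratios cannot change with the block, as each number has 1 library of each genotype. With 1 library left out these differences ranged from -0.29 to -0.014 for *Utrn* to *Dmd* and from 0.072 to 0.4 for *Sgce* to *Sgca*.

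The relation with the differentiation markers had r from 0.67 to 0.96 for *Dag1* with 1 library left out (exact permutation p = 0.0167 without WT replicate 3), from -0.504 to 0.46 for *Sgca*, 0.17 to 0.84 for *Sgcb*, 0.56 to 0.85 for *Utrn*, 0.40 to 0.75 for *Sgcd*, 0.23 to 0.66 for *Dtna*, 0.061 to 0.46 for *Sgce* and -0.79 to -0.39 for *Dmd*. Without the 2 farthest libraries it was -0.66 for *Sgca*, -0.074 for *Sgcd* and -0.11 for *Dtna*. That of *Sspn* was 0.82 (exact permutation p = 0.0833) without *Ltf*-KO replicate 3 and 0.92 (exact permutation p = 0.0667) without WT replicate 2, and that of *Drp2* ranged from 0.74 to 0.97, with an exact permutation p of 0.0583 to 0.167 in the 5 fits other than that without WT replicate 1.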

Other observations

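In the glycosylation list, *Gmppb*, which makes the GDP-mannose used to start the sugar chain of dystroglycan, was picked out because of its values. It measured 24.32, 9.2 and 8.28 TPM in WT SCs, against 8.91, 26.02 and 10.08 TPM in *Ltf*-KO SCs, so 1 library of each genotype stood above the other 4. In GENCODE M21 its exons overlap those of *Gm20529* on the same strand, which was listed at 0 TPM in all 6 libraries, and of *Rnf123* on the opposite strand, which was at 12.95 to 17.45 TPM. The cause was not tested.

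In the marker lists, 2 genes had an unadjusted limma p under 0.05, against 3.78% of all genes tested. These were 1 of 7 smooth muscle and pericyte genes tested and 1 of 5 endothelial genes tested. There were 0 among the 16 differentiation, 10 satellite cell, 10 Schwann cell, 8 fibroblast and 2 leukocyte genes tested. *Tagln*, an actin-binding protein of smooth muscle, averaged 60.04 ± 0.703 TPM in WT against 72.4 ± 9.87 TPM in *Ltf*-KO SCs (SD, n = 3 each), and *Egfl7*, a secreted endothelial factor, was at 2.51 ± 0.714 and 4.55 ± 1.23 TPM (SD, n = 3 each). The adjusted p by limma was 0.999 for both.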
